A study of Homo sapiens with 118 samples.

Results

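The genes described here set whether a cell leaves the resting state and starts to copy its DNA. They are the CDK inhibitors CDKN1A, CDKN1B, CDKN1C, CDKN2A, CDKN2B, CDKN2C and CDKN2D and the D cyclins CCND1, CCND2 and CCND3. They were taken by name from the count table: a feature belonged to the set when its name, without the number of the detector probe, was one of these 10 symbols. The 10 genes had 13 of the 22069 features in the table, which name 19470 symbols. CDKN1C, CCND2 and CCND3 had several probes each. Expression was measured by TempO-Seq, in which a pair of detector oligonucleotides is hybridised to a transcript, ligated, amplified and sequenced, so a count reports a short stretch of each transcript.

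The samples were 118 libraries of HepaRG, an established human liver cell line that can be differentiated to a hepatocyte-like state. All cells were thawed as differentiated cells and exposed for 72 h, with the chemical renewed each day, to 1 of 8 inhibitors of histone deacetylases (HDACs) at 5 concentrations, C1 being the lowest and C5 the highest. In µM, these ran from 0.041722 to 0.86 for apicidin, 0.177222 to 3.9 for mocetinostat, 0.001468 to 0.084 for panobinostat, 4.94 to 94.5 for scriptaid, 1.143333 to 44 for tacedinaline, 0.018811 to 1.5237 for trichostatin A and 0.404778 to 23.5 for vorinostat. The labels give 100.478 to 3038 for valproic acid, for which the treatment protocol lists smaller numbers in µM, so its unit is not settled. There were 38 groups of 3 libraries, 1 from each of 3 batches of HepaRG cells, while 2 groups, trichostatin A C4 and panobinostat C3, had 2 libraries each. The replicates are batches of 1 cell line, so the spread given here is that between batches. Libraries of solvent-treated cells were not analysed here. Each comparison is therefore made against C1 of the same chemical, and a change already complete at C1 does not appear in it. Scriptaid, tacedinaline and vorinostat were on plate E and the other 5 chemicals on plate H.

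CDK inhibitors and D cyclins act on the same step of the cell cycle. D cyclins bind CDK4 and CDK6, and the complexes phosphorylate the retinoblastoma protein, which then releases the E2F factors that switch on genes of DNA replication. The INK4 proteins, encoded by CDKN2A (p16), CDKN2B (p15), CDKN2C (p18) and CDKN2D (p19), bind CDK4 and CDK6 themselves. The CIP/KIP proteins, encoded by CDKN1A (p21), CDKN1B (p27) and CDKN1C (p57), bind cyclin-CDK complexes more broadly. CDKN1A is widely known as a gene induced by HDAC inhibitors, and its promoter is known for GC boxes, which the factor Sp1 binds.

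Promoter sequences of 3 members are shown because the results below turn on CDKN2C and CCND3, and because CDKN1A is the member best known for its response to this class of chemical. Each covers 250 bases before an annotated start (RefSeq, GRCh38.p14), read on the strand of the gene. Capitals mark the GC box GGGCGG, or CCGCCC where it lies on the other strand, with overlapping boxes each counted. CDKN2C lies on chromosome 1 at chr1:50960745-50974634, and the window before its second annotated start (chr1:50968456-50968705, plus strand) held 5 GC boxes. CCND3 lies at chr6:41934933-42050035. Of the windows listed for it, the one furthest upstream (chr6:42048689-42048938, minus strand) also held 5. CDKN1A lies at chr6:36676463-36687332, and its window (chr6:36678464-36678713, plus strand) held 4.
CDKN2C: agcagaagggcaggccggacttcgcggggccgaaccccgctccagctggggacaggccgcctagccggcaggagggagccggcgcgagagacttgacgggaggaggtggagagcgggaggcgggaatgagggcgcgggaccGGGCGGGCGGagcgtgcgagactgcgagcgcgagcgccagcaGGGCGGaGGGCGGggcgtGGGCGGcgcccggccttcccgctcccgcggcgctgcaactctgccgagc
CCND3: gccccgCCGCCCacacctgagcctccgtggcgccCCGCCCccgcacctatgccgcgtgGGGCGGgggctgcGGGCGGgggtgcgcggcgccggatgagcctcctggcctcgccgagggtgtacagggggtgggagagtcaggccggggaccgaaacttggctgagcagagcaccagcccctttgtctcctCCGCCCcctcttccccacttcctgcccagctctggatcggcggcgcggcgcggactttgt
CDKN1A: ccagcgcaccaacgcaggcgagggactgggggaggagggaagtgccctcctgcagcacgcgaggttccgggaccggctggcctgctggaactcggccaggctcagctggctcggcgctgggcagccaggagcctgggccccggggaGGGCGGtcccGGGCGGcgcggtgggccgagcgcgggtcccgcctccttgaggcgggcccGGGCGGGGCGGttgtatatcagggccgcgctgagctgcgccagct
Of 35116 such windows, 42.6% held at least 1 GC box, 7.63% at least 4 and 4.15% at least 5. The boxes came with base composition, since the GC content of these windows was 77.2% for CDKN2C, 74.4% for CCND3 and 76.4% for CDKN1A against a median of 58% over all windows. The other windows of CDKN2C held 0 and 1 boxes and those of CCND3 held 0 and 2. Windows of CDKN1B, CDKN2B and CDKN2D held 1, 2 and 2. Which of the starts is used by the transcripts that each probe counts is not given in the sources used here, and a match of letters is a description of the window only.

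The libraries held 1061359 to 5250260 counts (median 3702007). Mean totals were lower at C5 than at C1 in each of the 8 chemicals, from 3038905 to 1485592 in vorinostat at the one end and from 3832638 to 3725492 in trichostatin A at the other. Values below are CPM, that is counts per 1e+06 counts of a library size adjusted by edgeR's TMM factors, unless raw counts are named. Hepatocyte genes were abundant, and ALB, which encodes albumin, had a median of 49584 counts. The summed level of the 9 hepatocyte genes listed had a median of 44200 CPM at C1 (12900 to 62300) and 12000 at C5 (2860 to 45000). That of 5 genes of dividing cells had a median of 464 at C1 and 196 at C5. PTPRC, which marks leukocytes, had no count in any of the 118 libraries. Of the other leukocyte genes listed, CD163 and CD3E had medians of 0 counts, CD14 of 15.5 and CD68 of 113.5. Correlation with the other libraries of the same group was lowest in batch 3 of scriptaid C4 (mean r 0.851 against a median of 0.957), and results that rest on it are given with and without it. In trichostatin A the C1 library of batch 3 held 12920 CPM of hepatocyte genes, the lowest at C1. In bulk samples, fewer cells of a type and less RNA per cell cannot be told apart.

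Of the CDK inhibitors and D cyclins, CDKN2C and CCND3 were the genes that changed in the most chemicals. CDKN2C fell at C5 in 5 of 8 chemicals and CCND3 rose in 3. CCND1 fell in scriptaid and CCND2, by 1 of its 2 probes, fell in vorinostat. Calls are those of edgeR's quasi-likelihood test with Benjamini-Hochberg adjustment over all features tested in that chemical, with a limit of 0.05 on the adjusted p and of 1.5 on the fold change. The members gave 58 tests over the 8 chemicals at C5, of which 3 (5.17%) were called higher and 7 (12.1%) lower. Over all features, 11.6% of 101732 such tests were called higher and 13.4% lower. The share of member tests called lower was thus near that of features at large. The share called higher was smaller and rests on 3 calls. In 20 of the 58 member tests the C1 and C5 libraries did not overlap, which is more than were called. How often this held for features at large was not counted. A lack of overlap below therefore describes the libraries and does not stand for a call. The share called over all features differed widely between chemicals. At C5 it was 13.8% higher and 15% lower in apicidin, 14.8% and 15.7% in mocetinostat, 6.77% and 9.46% in panobinostat, 12.8% and 17% in scriptaid, 18.7% and 20.1% in tacedinaline, 0% and 0.0154% in trichostatin A, 4.84% and 6.22% in valproic acid and 22.7% and 24.9% in vorinostat.

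**Figure D1:**
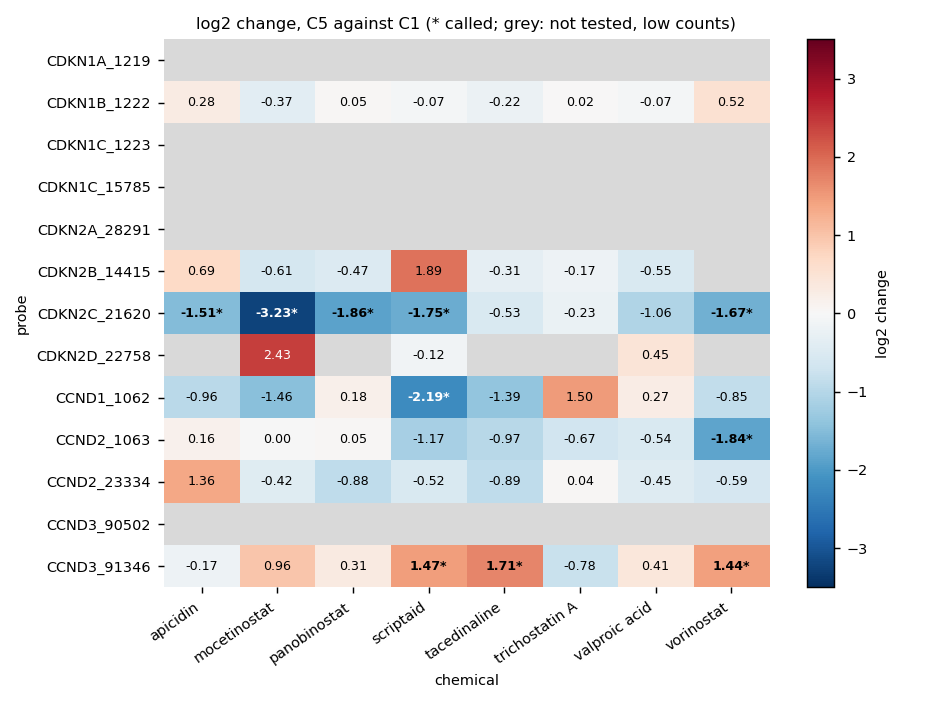
Log2 change from C1 to C5 for each of the 13 probes (vertical) in each of the 8 chemicals (horizontal), with the colour bar in log2 units. Bold values with an asterisk were called, and grey cells had too few counts to be tested. CDKN2C is below 0 in all 8 columns, and CCND3_91346 runs from -0.78 in trichostatin A to 1.71 in tacedinaline.

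Not every gene could be tested. Features whose counts were too low for the filter were left out, and 5 of the 13 features, namely the only probes of CDKN1A and CDKN2A, both probes of CDKN1C and CCND3_90502, passed it in no chemical. CDKN2D passed in 3 chemicals and CDKN2B in 7. CDKN1B, CDKN2C, CCND1, both CCND2 probes and CCND3_91346 passed in all 8.

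CDKN2C, which encodes the INK4 inhibitor p18, was lower on average at C5 than at C1 in all 8 chemicals. Over the 24 libraries at each concentration its level (probe CDKN2C_21620) had a median of 14.5 CPM at C1 (6.22 to 28.7) and 5.71 at C5 (0.889 to 18.9). The mean over the chemicals was 15.4 at C1, 11.2 at C2, 9.32 at C3, 7.73 at C4 and 6.29 at C5. No library held fewer than 1 count of it, and the median library held 30.

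The largest change of CDKN2C was in mocetinostat. In batches 1, 2 and 3 its level was 15.9, 8.64 and 13.5 CPM at C1 and 1.02, 2.02 and 0.889 at C5. All C5 libraries lay below all C1 libraries, and the group means were 12.7 ± 3.69 and 1.31 ± 0.62 (SD, n = 3). This was a log2 change of -3.23 ± 0.71 (SE), a 9.39-fold difference (edgeR adjusted p = 0.00255). The libraries held 41 to 65 raw counts of CDKN2C at C1 and only 3 to 8 at C5, so the size of the fall rests on few counts. At C2, C3 and C4 the levels were 4.89, 1.41 and 7.80, then 1.92, 2.34 and 5.89, then 3.80, 2.27 and 6.75, so every library from C2 on lay below every C1 library. None of these 3 steps was called.

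In panobinostat the level of CDKN2C was 8.88, 28.6 and 28.7 CPM at C1 and 7.36, 5.38 and 5.32 at C5. Batch 1 was the low library at C1 and the high library at C5, and the groups still did not overlap (log2 change -1.86 ± 0.43, edgeR adjusted p = 0.00409). In scriptaid the values were 17.3, 20.6 and 14.0 at C1 and 6.34, 5.76 and 3.12 at C5, also without overlap (-1.75 ± 0.53, edgeR adjusted p = 0.0182). In vorinostat they were 14.9, 7.79 and 20.6 at C1 and 6.38, 4.71 and 2.61 at C5 (-1.67 ± 0.55, edgeR adjusted p = 0.0108), with 4 to 9 raw counts at C5. The groups were separate there too. The fall was called at C4 as well (-1.41, edgeR adjusted p = 0.0296), although the C4 and C1 groups overlapped. In apicidin the values were 12.1, 18.0 and 9.99 at C1 and 4.74, 6.98 and 2.35 at C5 (-1.51 ± 0.52, edgeR adjusted p = 0.0320). All 3 batches pointed down in each of these 5 chemicals.

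In the other 3 chemicals the C1 and C5 groups of CDKN2C overlapped. Valproic acid gave 22.0, 20.1 and 11.4 CPM at C1 and 5.66, 6.85 and 13.4 at C5, with batches 1 and 2 lower and batch 3 higher (-1.06 ± 0.41, edgeR adjusted p = 0.103). Without batch 3 the change there was -1.75 and was called (edgeR adjusted p = 0.0165). Tacedinaline gave 10.6, 8.02 and 13.8 at C1 and 3.27, 12.4 and 6.30 at C5 (-0.53 ± 0.53, edgeR adjusted p = 0.442). Trichostatin A gave 20.8, 17.4 and 6.22 at C1 and 5.93, 18.9 and 13.2 at C5 (-0.23 ± 0.44, edgeR adjusted p = 0.920), and 1 of its 3 batches was lower.

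**Figure D2:**
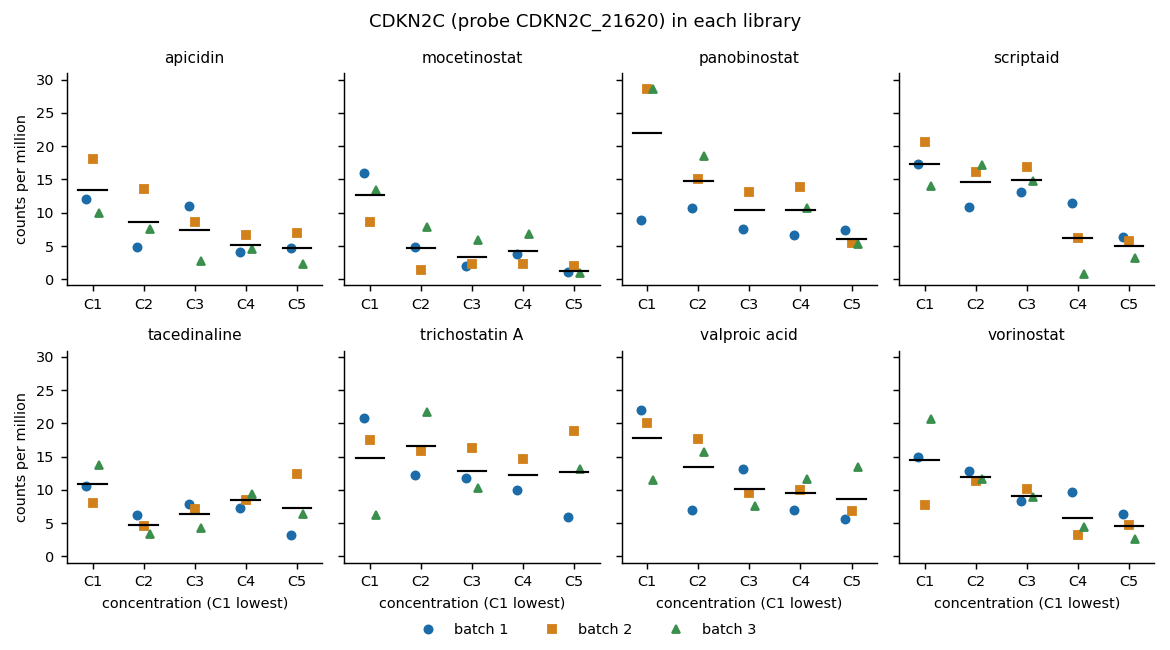
Level of CDKN2C in each library, in CPM (vertical) by concentration (horizontal), 1 panel a chemical. Symbols are the HepaRG batches and bars are group means. At C5 the 3 libraries lie below all C1 libraries in apicidin, mocetinostat, panobinostat, scriptaid and vorinostat.

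A linear slope on log2 concentration, given here as the log2 difference that it fits between C1 and C5 and called the trend, uses all 5 concentrations and shares the C1 and C5 libraries with the comparison above. By trend CDKN2C fell in apicidin (-1.47), mocetinostat (-2.42), panobinostat (-1.62), valproic acid (-0.99) and vorinostat (-1.73), with edgeR adjusted p-values between 0.00185 and 0.0289. In scriptaid it did not pass (-1.48, edgeR adjusted p = 0.0719), and without the scriptaid C4 library of batch 3 it did (-1.31, edgeR adjusted p = 0.0267). Over the members, 3 of 58 trend tests were called higher and 7 lower, where 12.7% of all features were called in each direction.

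The calls of CDKN2C at C5 did not all hold when 1 batch was left out. The call in mocetinostat held without each batch (-3.90 to -2.94). In panobinostat and vorinostat it was lost without batch 3 (edgeR adjusted p = 0.119 and 0.225), with a change of -1.02 left in vorinostat. In scriptaid it was lost without batch 1 or 2 (edgeR adjusted p = 0.0835 and 0.208), and in apicidin without any 1 of the 3 (edgeR adjusted p = 0.0568 to 0.113). The same was seen for the trend of CDKN2C, whose call held without each batch in mocetinostat alone. It was lost without batch 2 in apicidin (edgeR adjusted p = 0.0565) and without batch 3 in panobinostat and vorinostat (edgeR adjusted p = 0.0795 and 0.0899). In valproic acid it was lost without batch 1 or 2 (-0.75 and -0.77, edgeR adjusted p = 0.241 and 0.307).

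The remaining INK4 genes were called in no chemical at C5 or by trend in the main edgeR fits. Some alternative fits called CDKN2B or CDKN2D. CDKN2B, which encodes p15 and is known as a target of TGF-beta signalling, was measured by probe CDKN2B_14415 at a median of 10 counts. In scriptaid its level was 2.24, 3.69 and 0.893 CPM at C1 and 10.9, 10.6 and 4.16 at C5, higher in each batch and without overlap. The change was 1.89 ± 0.79 (edgeR adjusted p = 0.0807). It was called without the scriptaid C4 library of batch 3 (1.87, edgeR adjusted p = 0.0487), by DESeq2 (adjusted p = 0.0283), and against the mean of C1 and C2 (2.16, edgeR adjusted p = 0.0146). In the other 6 chemicals tested, the change of CDKN2B lay between -0.61 and 0.69, and 1 of the 7 tests had an unadjusted p under 0.05.

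CDKN2D, which encodes p19, was at 0.734, 0.211 and 1.49 CPM at C1 of mocetinostat and 6.63, 4.30 and 2.37 at C5. Every batch was higher at C5 and the groups did not overlap, but the error was large (probe CDKN2D_22758, log2 change 2.43 ± 1.2, edgeR adjusted p = 0.140). Its other 2 tests, in scriptaid and valproic acid, gave -0.12 and 0.45. No test of CDKN2D at C5 had an unadjusted p under 0.05, and DESeq2 called none. Its trend in mocetinostat was 2.32 ± 0.97 (unadjusted p = 0.0277, edgeR adjusted p = 0.0694), and with the HepaRG batch as a block it was called (2.73, edgeR adjusted p = 0.0393). CDKN2A, which encodes p16 and, from another reading frame, ARF, was too low to test. Its probe held no count in 54 of 118 libraries and at most 15 in any, with 56 counts summed over the 24 libraries at C1 and 52 over those at C5. These sums hold moves in both directions. In scriptaid the raw counts of CDKN2A were 1, 3 and 2 at C1 and 2, 7 and 5 at C5, a pooled ratio of 3.32 with an exact 95% interval of 1.2 to 10.5 for counting error only. Pooled counts went from 0 to 5 in apicidin and from 6 to 0 in vorinostat.

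CDKN1A, which encodes p21, had few counts. Its probe CDKN1A_1219 held 0 to 22 counts in a library (median 3), with 28 libraries at 0 and 72 at 3 or fewer. Summed over libraries it had 43 counts at C1, 92 at C2, 104 at C3, 81 at C4 and 117 at C5. C3 and C4 had 23 libraries each and the other concentrations 24, and those at C5 were shallower than those at C1. The sum was thus already higher at C2 than at C1 and did not rise at every step. The mean at C5 was above that at C1 in 7 of 8 chemicals. Most of the excess at C5 came from scriptaid and vorinostat, and within them mainly from batch 2.

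In vorinostat the raw counts of CDKN1A were 0, 0 and 5 at C1, 3, 5 and 2 at C2, 2, 2 and 0 at C3, 3, 6 and 12 at C4 and 3, 22 and 7 at C5. The batches with no count at C1 had 3 and 22 at C5. Raw counts overlapped between C1 and C5, but the C5 libraries were shallower, and in CPM the groups did not overlap, with 0, 0 and 1.61 at C1 and 2.73, 11.5 and 4.56 at C5. Pooled over batches and scaled for depth, C5 was 12.3 times C1, with an exact 95% interval of 4.74 to 40.3. In scriptaid the counts were 1, 0 and 0 at C1 and 8, 21 and 0 at C5, so that batch 3 had none at either concentration. The pooled ratio was 41.2, with an interval of 6.83 to 1.68e+03 that rests on 1 count at C1. Such intervals cover counting error only and leave out the spread between batches, whose counts were summed. Because PCR copies of a molecule are counted as separate reads, they can be too narrow even for counting error.

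In a fit with no filter on low counts, CDKN1A was called at C5 in scriptaid (edgeR adjusted p = 0.0384) and in vorinostat (edgeR adjusted p = 0.0194) and by trend in vorinostat (edgeR adjusted p = 0.00829) but not in scriptaid (edgeR adjusted p = 0.207). Without the scriptaid C4 library of batch 3, CDKN1A also passed the filter there and was called at C5 (edgeR adjusted p = 0.0109). Pooled counts of the other chemicals at C1 and C5 were 4 and 13 in apicidin (ratio 3.48, interval 1.07 to 14.6) and 2 and 11 in trichostatin A (5.74, interval 1.25 to 53.3). They were 8 and 8 in mocetinostat, 11 and 12 in panobinostat, 3 and 5 in tacedinaline and 9 and 7 in valproic acid, and each of those 4 intervals includes 1. Counts at concentrations between were at times higher than at C5, with 12, 17 and 5 in valproic acid C3 and 17, 8 and 1 in apicidin C2.

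**Figure D3:**
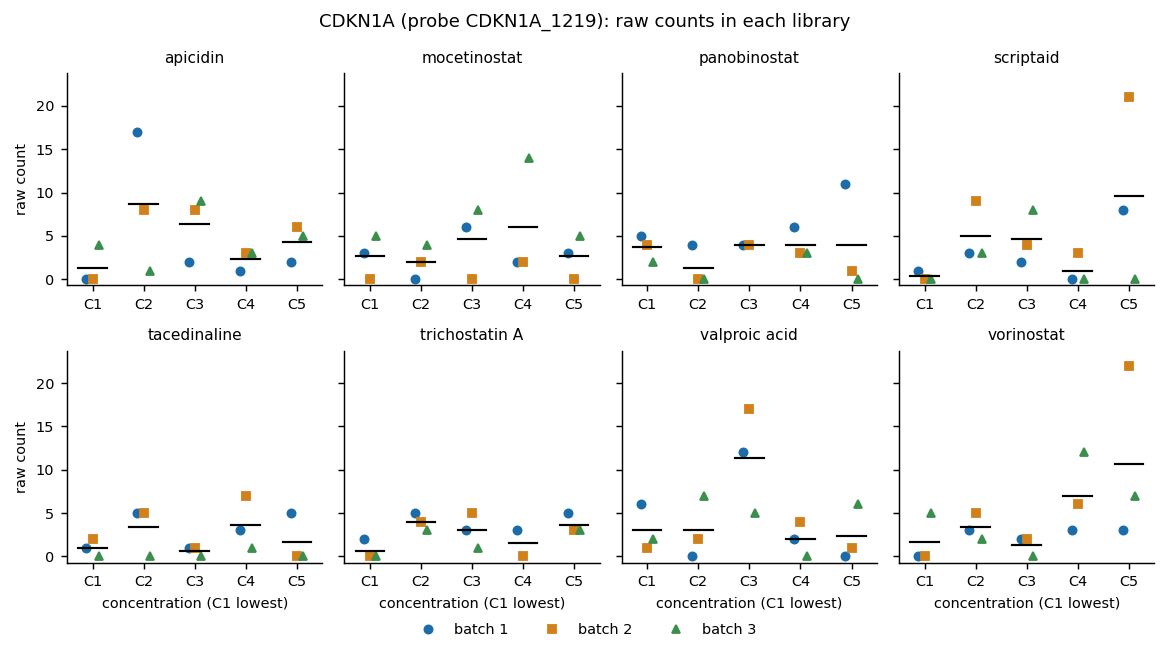
Raw counts of CDKN1A in each library (vertical) by concentration (horizontal), 1 panel a chemical, with a symbol for each HepaRG batch and a bar for the group mean. The highest values are 22 in vorinostat C5 and 21 in scriptaid C5, both of batch 2, and 28 of the 118 libraries are at 0.

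CDKN1B, which encodes p27, was counted in every library (25 to 366 counts, probe CDKN1B_1222), and it moved little. Its median level was 52.0 CPM at C1 (27.4 to 77.1) and 55.5 at C5 (26.1 to 85.2). In vorinostat it was 49.4, 44.9 and 51.4 at C1 and 71.1, 60.2 and 78.3 at C5, higher in each batch and without overlap. The log2 change of 0.52 ± 0.22 passed the test (edgeR adjusted p = 0.0497), as did the trend (0.58 ± 0.19, edgeR adjusted p = 0.0154), but both were under the fold change of 1.5. In the other 7 chemicals the change of CDKN1B ran from -0.37 to 0.28, and none of these had an unadjusted p under 0.05.

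CDKN1C, which encodes p57 and is known as an imprinted gene, was near the limit of detection. Probe CDKN1C_15785 had no count in 95 libraries, and its sum over 24 libraries went from 37 counts at C1 to 15 at C2, then to 9 and 2 in the 23 libraries at C3 and at C4, and to 1 in 24 libraries at C5. The C1 counts came from 7 chemicals, with 10 in scriptaid, 9 in panobinostat and none in trichostatin A. Probe CDKN1C_1223 had 9 counts at C1, of which 8 were in scriptaid, and 1 at C5. With no filter on low counts, the trend of CDKN1C_15785 was called lower in mocetinostat, panobinostat and vorinostat and that of CDKN1C_1223 in scriptaid, with edgeR adjusted p-values of 0.0334, 0.00746, 0.0280 and 0.0498. At C1 in mocetinostat all 5 counts of CDKN1C_15785 came from batch 1, and in scriptaid all 8 of CDKN1C_1223 came from batch 2.

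CCND3, which encodes cyclin D3, rose at C5 in tacedinaline, scriptaid and vorinostat. In tacedinaline its level by probe CCND3_91346 was 4.43, 14.5 and 13.0 CPM at C1 and 30.0, 34.2 and 48.6 at C5. Every C5 library lay above every C1 library (log2 change 1.71 ± 0.36, 3.27-fold, edgeR adjusted p = 0.000167). The rise was called at C4 (1.12, edgeR adjusted p = 0.0133) and by trend (1.64, edgeR adjusted p = 0.000135), and at C5 it held without each batch.

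In scriptaid CCND3 was at 19.8, 18.9 and 9.23 CPM at C1 and 47.5, 54.0 and 31.7 at C5 (1.47 ± 0.50, edgeR adjusted p = 0.0318). The groups did not overlap, with batch 3 the lowest of both. The levels at C2 to C4 lay between 2.35 and 24.5, and the trend was not called (0.95, edgeR adjusted p = 0.272). In vorinostat the levels were 8.61, 11.2 and 7.39 at C1 and 28.3, 24.6 and 22.2 at C5, again apart (1.44 ± 0.40, edgeR adjusted p = 0.00315). The trend (1.41, edgeR adjusted p = 0.00189) and C4 (1.00, edgeR adjusted p = 0.0474) were called there too. The C5 call was lost in scriptaid without batch 1 or 2 (edgeR adjusted p = 0.175 and 0.160) and in vorinostat without batch 1 (1.29, edgeR adjusted p = 0.0545).

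Mocetinostat gave its highest CCND3 level below the top concentration. The values were 8.81, 9.28 and 8.22 CPM at C1, 31.6, 18.4 and 31.1 at C4 and 10.2, 20.5 and 20.7 at C5. All libraries at C4 and C5 lay above those at C1, and batch 1 was the low one at C5. The change was called at C4 (1.62, edgeR adjusted p = 0.0366) and not at C5 (0.96, edgeR adjusted p = 0.190). The trend was called (1.40, edgeR adjusted p = 0.0396), but not without any 1 batch (edgeR adjusted p = 0.0623 to 0.186). The 3 chemicals called at C5 are the 3 of plate E, and mocetinostat was on plate H, so chemical and plate cannot be told apart in this comparison.

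In apicidin, panobinostat and valproic acid the change of CCND3 at C5 was -0.17, 0.31 and 0.41 and was not called. In trichostatin A CCND3 was at 12.8, 8.14 and 9.61 CPM at C1 and 2.58, 6.45 and 8.99 at C5. Each batch was lower and the groups overlapped (-0.78 ± 0.48, edgeR adjusted p = 0.638). The other probe, CCND3_90502, which held a median of 2 counts and none in 40 libraries, summed to 72 counts at C1 and 75 at C5 and gave no test of the same change. Its pooled counts went from 21 to 8 in apicidin (ratio 0.407, interval 0.156 to 0.958) and from 4 to 13 in panobinostat (ratio 3.54, interval 1.09 to 14.9), where single libraries held 14 of the 21 and 9 of the 13.

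**Figure D4:**
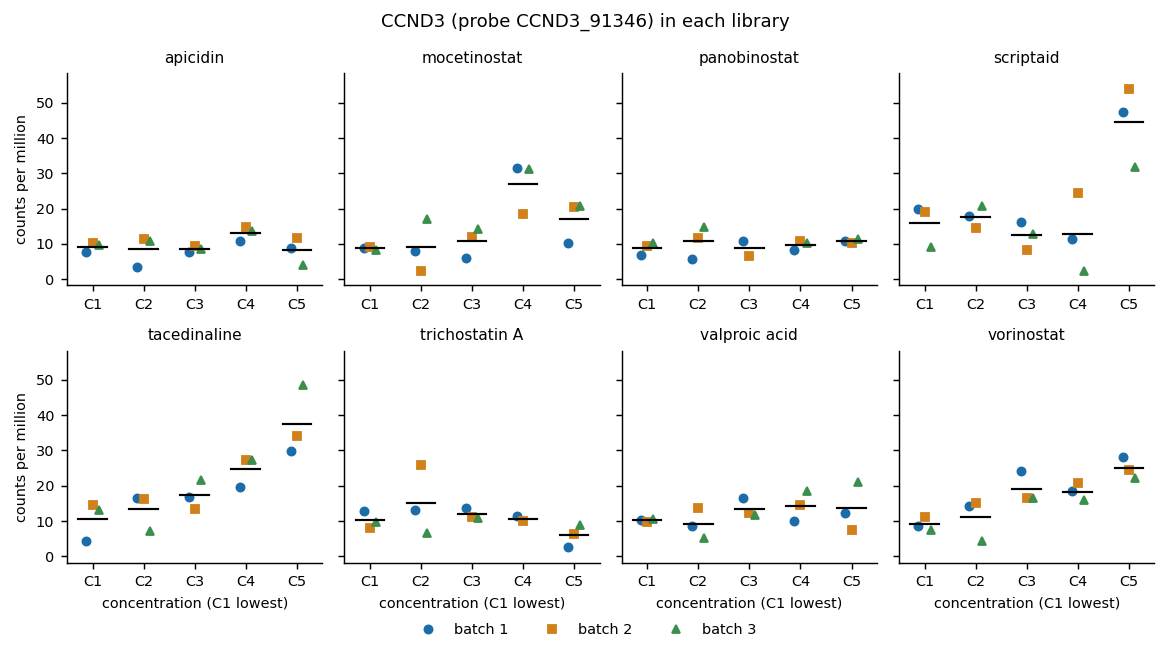
Level of CCND3 (probe CCND3_91346) in each library, in CPM (vertical) by concentration (horizontal), 1 panel a chemical. Symbols are the HepaRG batches and bars are group means. The C5 libraries reach 30.0 to 48.6 in tacedinaline, 31.7 to 54.0 in scriptaid and 22.2 to 28.3 in vorinostat.

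At C4, 3 member tests were called higher, all of CCND3, and 1 lower, CDKN2C in vorinostat, where 7.85% and 8.14% of all tests were called. At C2 and C3 edgeR called no member. Of the 58 tests, 2 had an unadjusted p under 0.05 at C2, both lower, and 3 at C3. Over all features 0.0659% and 0.0206% were called higher and lower at C2, and 2.82% and 3.16% at C3. DESeq2 was run at C5 and for the trend only.

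CCND1, which encodes cyclin D1 and is known as the D cyclin most often amplified in tumours, fell at C5 in scriptaid. Its levels were 7.03, 5.16 and 6.85 CPM at C1, 10.1, 11.7 and 11.5 at C2 and 1.81, 1.21 and 1.04 at C5. The C5 libraries lay below and the C2 libraries above all C1 libraries. Raw counts were 21 to 23 at C1 and only 2 to 4 at C5. The change from C1 to C5 was -2.19 ± 0.61 (4.57-fold, edgeR adjusted p = 0.0104), while that from C1 to C2 was not called (0.81, unadjusted p = 0.124, edgeR adjusted p = 1). The trend was not called (-0.81, edgeR adjusted p = 0.524). The C5 call was lost without batch 1 or 2 (edgeR adjusted p = 0.0935 and 0.112).

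In trichostatin A the CCND1 levels went the other way, at 3.36, 4.36 and 1.98 CPM at C1 and 8.77, 11.9 and 6.89 at C5. All C5 libraries lay above all C1 libraries in this chemical, and the change did not pass the test over all features (1.5 ± 0.58, unadjusted p = 0.0179, edgeR adjusted p = 0.453). In tacedinaline CCND1 was at 8.87, 3.39 and 7.39 at C1 and 2.72, 2.26 and 2.25 at C5, lower in each batch and not called (-1.39 ± 0.78, edgeR adjusted p = 0.149). The remaining changes were -1.46 in mocetinostat, -0.96 in apicidin, -0.85 in vorinostat, 0.18 in panobinostat and 0.27 in valproic acid, none of them called.

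CCND2, which encodes cyclin D2, fell in vorinostat by 1 of its probes. With CCND2_1063 its levels were 14.9, 14.0 and 17.4 CPM at C1 and 6.38, 3.66 and 3.26 at C5, without overlap (-1.84 ± 0.47, 3.58-fold, edgeR adjusted p = 0.00154). Raw counts were 26 to 54 at C1 and 5 to 7 at C5. The trend was called too (-1.49, edgeR adjusted p = 0.00220), and both calls held without each batch. In tacedinaline the levels were 10.6, 18.2 and 18.4 at C1 and 3.81, 4.51 and 16.2 at C5, with batch 3 far less changed than the others. The trend was called there (-1.11, edgeR adjusted p = 0.0293) and C5 was not (-0.97, edgeR adjusted p = 0.0980). Without batch 3 the C5 change was -1.83 and was called (edgeR adjusted p = 0.0185), whereas the trend was lost without batch 1 or 2 (edgeR adjusted p = 0.100 and 0.258). In scriptaid CCND2_1063 was called at C5 only without the C4 library of batch 3 (-1.2, edgeR adjusted p = 0.0433, against -1.17 and 0.0908 with it).

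The second probe, CCND2_23334, was called in no chemical by edgeR or by DESeq2, and none of its 8 tests at C5 had an unadjusted p under 0.05. In vorinostat it was at 6.89, 1.82 and 7.07 CPM at C1 and 9.12, 2.09 and 0 at C5 (-0.59 ± 0.87). Its fall there was thus not shared by all batches, and its error was larger than its change. Its highest change was 1.36 in apicidin (edgeR adjusted p = 0.251). Over the 40 group means the probes of CCND2 correlated with r = 0.248.

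**Figure D5:**
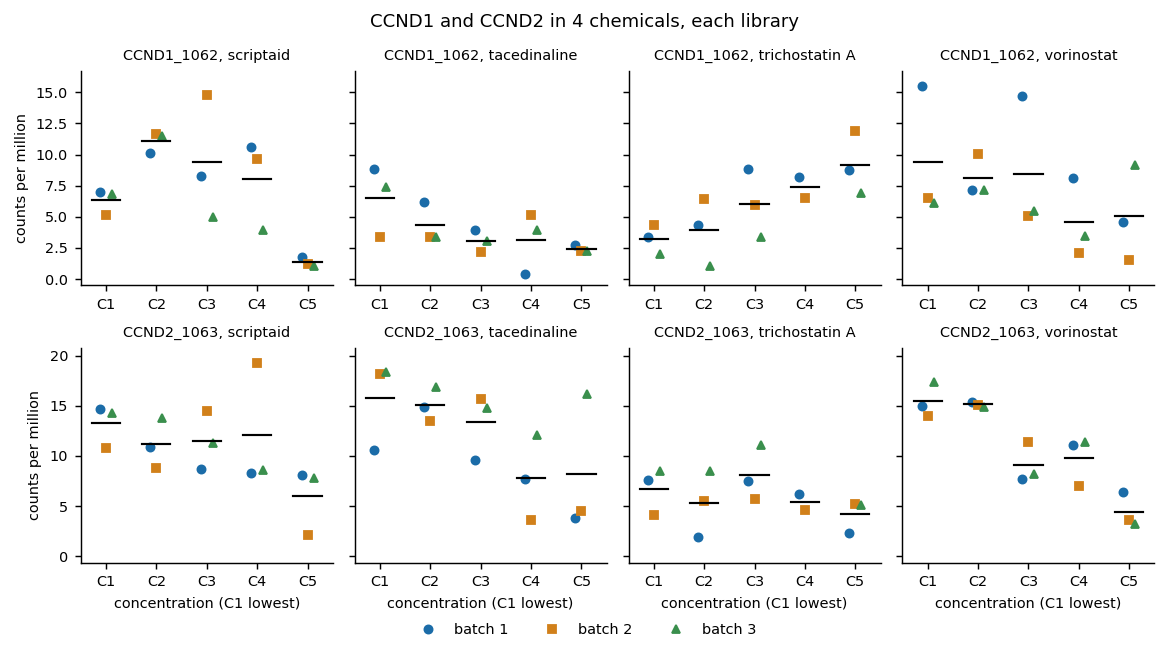
Levels of CCND1 (upper panels) and CCND2 by probe CCND2_1063 (lower panels) in each library, in CPM (vertical) by concentration (horizontal), for scriptaid, tacedinaline, trichostatin A and vorinostat. Symbols are batches and bars are group means. CCND1 is at 1.04 to 1.81 in scriptaid C5 and at 6.89 to 11.9 in trichostatin A C5, and CCND2 is at 3.26 to 6.38 in vorinostat C5.

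Whether the change from C1 to C5 differed among the 8 chemicals was tested in 1 model of all 118 libraries. Concentrations differ between the chemicals, so this sets top against bottom of each range and not equal doses. Of 11 member features tested, CCND3_91346, CCND1 and CDKN2C differed (edgeR adjusted p = 0.0138, 0.0173 and 0.0216), where 30.3% of all 15632 features did. CCND3 ran from -0.78 in trichostatin A to 1.71 in tacedinaline, CCND1 from -2.19 in scriptaid to 1.5 in trichostatin A, and CDKN2C from -3.23 in mocetinostat to -0.23 in trichostatin A. Without trichostatin A no member differed (edgeR adjusted p = 0.129, 0.273 and 0.113 in the same order, with unadjusted p under 0.05 for CCND3 and CDKN2C), and 21.2% of all features did. Among the 3 chemicals of plate E none of these 3 features differed (edgeR adjusted p = 0.967, 0.750 and 0.548) and 3.15% of all features did. Among the 5 of plate H CDKN2C differed (edgeR adjusted p = 0.0221) and CCND3 and CCND1 did not (0.298 and 0.109), against 23.4% of all features. Without the trichostatin A C1 library of batch 3, CCND3 alone still differed (edgeR adjusted p = 0.0167), and CCND1 and CDKN2C were at 0.0587 and 0.0596.

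The members did not move as 1 group over the 40 group means, each centred on its chemical. CCND1 and CCND3 correlated at r = -0.593, CCND2_1063 and CCND3 at -0.418 and CDKN2C and CCND3 at -0.323, while CDKN2C and CCND1 correlated at 0.537 and CCND1 and CCND2_1063 at 0.523. These values describe group means from the same libraries, with the same depths and the same concentration series, and are not independent points. Of about 11287 features compared in the same way, ATP2A2 (r = 0.886) and RAB11B (0.878) were most like CDKN2C, and DYNLL2 (0.891) and RFC1 (0.842) most like CCND3. KLHL42 (0.851) was most like CCND1 and GDI2 (0.842) most like CCND2_1063.

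Genes that act with or after the members are set here against the shares over all features at C5, 11.6% called higher and 13.4% lower. Of 84 tests at C5 of kinases and later cyclins, 5 were called higher and 17 lower (5.95% and 20.2%). CCNA2, the cyclin of S phase, fell in 6 chemicals with called changes between -2.86 and -0.90, and CCNB1 and CDK1, which act in mitosis, fell in 5 each. CDK6, the partner of the D cyclins, rose in 2. Among retinoblastoma and E2F proteins, 3 of 80 tests were called higher and 12 lower (3.75% and 15%, the latter near the share over all features), and RBL1 and TFDP1, the partner of the E2F factors, fell in 4 chemicals each. The lists' medians by chemical ran from -0.61 to 0.09 and from -0.78 to 0.14, where those over all features stayed between -0.00182 and 0.0842.

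Of 117 tests of E2F targets of DNA replication, 9 were called higher and 25 lower (7.69% and 21.4%), with list medians from -1.29 to 0.41. TYMS, which makes thymidylate, fell in 7 of 8 chemicals (median change -2.36). RRM2, a subunit of ribonucleotide reductase, fell in 4, whereas CDC6, which loads the replicative helicase, rose in 2, and GINS2 rose in 3 and fell in 2. Of 166 tests of p53 and its targets, 1 was called higher and 65 lower (39.2%), with list medians from -1.43 to -0.24. MDM2, which encodes the ubiquitin ligase of p53, fell in 7 chemicals by each of 3 probes, with median changes of -2.28 to -2.91. CDKN1A, itself a p53 target, is counted among the members and not in this list.

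Genes that set the turnover of the inhibitors and D cyclins gave 19 higher and 14 lower calls in 143 tests (13.3% and 9.79%), near the shares over all features. FBXW7 and GSK3B, of which the latter phosphorylates cyclin D1, rose in 4 chemicals each, FBXO4 fell in 4, and SKP2, the F-box protein that recognises p27, fell in 3. Of 90 tests of SMAD, FOXO and Sp factors, 12 were called higher and 9 lower (13.3% and 10%), also near those shares. KLF6 was higher in 5 chemicals. The probes SMAD3_6562 and SMAD3_27880 were each lower in 3, and the latter was higher in 1. The tests of a list share libraries and, for genes with several probes, transcripts, so these counts are not independent.

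Marker genes of some cell types changed too. The summed hepatocyte level had a median of 44200 CPM at C1, 45000 at C2 and 27600 at C3, where no member was called. At C5, 66 of 80 tests of hepatocyte genes were called lower and none higher, and 25 of 40 tests of genes of dividing cells were called lower. Biliary genes gave 11 higher calls in 33 tests, mesenchymal genes 8 higher and 27 lower in 64. Endothelial genes gave 1 lower call in 10 tests and leukocyte genes 3 in 16 (10% and 18.8%). Over all features 11.6% of tests were called higher and 13.4% lower. The endothelial and leukocyte shares, and the 12.5% of mesenchymal tests called higher, were near these. In the 5 chemicals where CDKN2C fell at C5, the mean summed level of the genes of dividing cells went from 448 to 64.4 CPM in apicidin, 424 to 217 in mocetinostat, 597 to 212 in panobinostat, 409 to 55.1 in scriptaid and 505 to 44.9 in vorinostat. In the other 3 it went from 418 to 260.5 in tacedinaline, 461.5 to 472 in trichostatin A and 489 to 256 in valproic acid. In tacedinaline, where CCND3 rose the most, the summed hepatocyte level was 44080 at C1 and 3681 at C5. PECAM1_5057, an endothelial probe, had no count in any library and EPCAM, a biliary one, had none in 113. Of the other endothelial probes, KDR and PECAM1_14079 had medians of 20 and 3 counts, and those of VWF and CDH5 had 0. Of the other biliary probes, CFTR and KRT7_3703 had medians of 0 and the rest of 4 to 130.5. The part of these cell markers, and of the lower depth at C5, in the changes of the members was not tested.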

How the data were processed

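HepaRG cells were profiled by TempO-Seq in 118 libraries. The authors deposited raw read counts per detector probe, as whole numbers with no normalisation. The submitters' processing notes name bcl2fastq 2.20.422, fastp 0.23.2, STAR 2.7.10b and DESeq2 1.38.0, without their roles. Of 22069 features, 22068 had a value in every library and were used. Counting is assumed to be by probe, and no use of strand or treatment of near-identical copies is given in the sources used here. Counts were fitted per chemical in R 4.3.3 with edgeR 4.0.16 (filterByExpr with a minimum count of 10 and a total of 15, TMM scaling, quasi-likelihood F tests, Benjamini-Hochberg adjustment over all features tested), for C2 to C5 against C1 and for the slope on log2 concentration. Calls needed an adjusted p below 0.05 with a fold change of 1.5 or more. SEs were obtained from the log2 change and its F value (size over root F). The difference among chemicals was an F test in 1 model of all libraries, called on the adjusted p alone. The script was tested on simulated counts. DESeq2 1.42.0 was an alternative. Named genes were the members, and from each list the 3 features called in the most chemicals in each direction. Members and lists were chosen with earlier results of these data known. Replicate numbers are HepaRG batches, and the fits hold no batch term. In a check of this pairing, deviations from group means correlated at a median of 0.023 in 232 pairs of the same batch and -0.0109 in 464 pairs of different batches. Promoters were matched by symbol in a RefSeq table (GRCh38.p14), which had entries for 7 of the 10 genes. The paper given with the series reports a different HepaRG experiment, and no value was taken from it.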

Additional observations from a re-analysis of the deposited data

Results flagged for a closer look

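For 3 features the change from C1 to C5 differed among the 8 chemicals in an edgeR F test over all libraries. Of all 15632 features tested, 30.3% did so too, and such a difference is therefore not particular to the members. CCND1 had an adjusted p of 0.0173, with a lower C5 level in 5 chemicals and a higher one in 3. CCND3_91346 had an adjusted p of 0.0138, with a higher level in 6 chemicals and a lower one in 2. CDKN2C had an adjusted p of 0.0216, with a C5 estimate below C1 in all 8. The C1 and C5 groups did not overlap in 5 of them. In trichostatin A the estimate was -0.23 ± 0.44, with 1 of 3 batches lower, so a fall was not shown there. None of these 3 tests passed without trichostatin A, which had 2 features called at C5 in all, and CDKN2C alone passed within plate H.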

How the results depend on the processing

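No change of the members at C5 changed sign while called under any alternative run. Counts of member calls at C5 were 3 higher and 7 lower. With no filter on low counts 5 were higher, CDKN1A in scriptaid and vorinostat being added. Leaving out 1 batch gave 1 to 4 higher and 4 to 6 lower, and leaving out the scriptaid C4 library of batch 3, an alternative chosen after seeing the data, gave 5 higher and 8 lower, with CDKN1A, CDKN2B and CCND2 added in scriptaid. By trend, 3 were higher and 7 lower. With the probes of a gene summed, 2 were higher and 6 lower by trend, while the counts at C5 stayed at 3 and 7. With no filter on low counts 3 were higher by trend, of which 2 were shared with the main fit. A slope on the rank of the concentration gave 5 higher (CDKN1B and CDKN2D added), no filter gave 11 lower (both CDKN1C probes added), and leaving out 1 batch gave 2 to 4 higher and 4 to 5 lower, and leaving out that scriptaid library gave 8 lower, with CDKN2C in scriptaid added. Of the 10 calls at C5, 3 held without each batch in turn, and of the 10 by trend 4 did. With the HepaRG batch as a block the counts were 3 and 7 at C5 and 4 and 7 by trend, where CDKN2D in mocetinostat was added (2.73, edgeR adjusted p = 0.0393), and no call was lost. The difference among chemicals held for 3 members, for 3 with the block, for 0 without trichostatin A, for 0 within plate E, for 1 within plate H, for 1 without the trichostatin A C1 library of batch 3, and for 0 to 1 without 1 batch. The plate fits and the fit without that library were also chosen after seeing the data. The causes were not tested, and lower calls with fewer libraries include the loss of samples itself. CDKN2C in apicidin was not called against the mean of C1 and C2 (-1.2, edgeR adjusted p = 0.0553). Low counts limit what can be said of CDKN1A, CDKN1C, CDKN2A and CCND3_90502, which had medians of 0 to 3 counts. Whether depth, expression or the probe set these counts was not tested.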
